A study of Mus musculus with 16 samples.

Results

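De novo lipogenesis, the making of fatty acids from sugar, was followed in iWAT, the inguinal depot of white fat that lies under the skin, through 10 genes of 54752 in the count table. They are Acly, Acaca, Acacb, Fasn, Me1, Elovl6 and Scd1, which encode enzymes of the pathway, and Srebf1, Mlxipl and Thrsp, which encode regulators. They were listed by name as genes of fatty acid synthesis, with earlier results of these data known. All 10 were among the 19736 genes past the filter on low counts. RNA sequencing gave 16 libraries, 4 of each of 4 genotypes, from mice on a C57BL/6J background that were labelled as females of 90 days. The mice were kept with free access to food, but blood for leptin was taken at this age after a fast, and whether the tissue for RNA was taken in the fed or the fasted state is not given in the sources used here. The WT group had normal Lep and no transgene. In the Lepob/+ group 1 of the copies of Lep, the gene of the fat-derived hormone leptin, was the ob allele. The SOD1-G93A group had a high-copy transgene of mutant human SOD1, a model of amyotrophic lateral sclerosis, and the SOD1-G93A Lepob/+ group had the transgene together with the ob allele. Neither change was limited to fat cells, and each library was counted as 1 mouse.

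In this pathway citrate leaves the mitochondria and is split by ATP citrate lyase (Acly) into acetyl-CoA, which acetyl-CoA carboxylase (Acaca, Acacb) turns into malonyl-CoA. Fatty acid synthase (Fasn) builds palmitate from both, drawing on NADPH that malic enzyme (Me1) supplies, and the product is elongated by Elovl6 and desaturated by Scd1. Insulin acting through SREBP-1c (Srebf1), glucose acting through ChREBP (Mlxipl) and thyroid hormone responsive Spot 14 (Thrsp) are known to set the level of these enzymes in fat and liver, and feeding and fasting move them strongly.

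Promoter sequence is shown first for Fasn and Acly, whose levels ranged widely between mice, and for Mlxipl, whose levels ranged less. The sequences are the 250 bases before the transcription start in RefSeq (GRCm38.p6), written 5′ to 3′ on the strand of the gene, and each lies wholly outside the annotated gene. Capitals mark matches, on either strand, to the E-box CACGTG, the CCAAT box CCAAT or the GC box GGGCGG. The Fasn window is chr11:120824548-120824797 on the minus strand, the Acly window chr11:100528001-100528250 on the minus strand and the Mlxipl window chr5:135089640-135089889 on the plus strand.
Fasn: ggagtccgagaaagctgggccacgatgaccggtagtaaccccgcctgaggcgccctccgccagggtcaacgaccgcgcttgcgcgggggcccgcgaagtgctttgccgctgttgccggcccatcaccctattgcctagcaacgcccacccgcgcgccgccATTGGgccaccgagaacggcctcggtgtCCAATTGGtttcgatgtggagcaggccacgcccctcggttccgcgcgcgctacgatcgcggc
Acly: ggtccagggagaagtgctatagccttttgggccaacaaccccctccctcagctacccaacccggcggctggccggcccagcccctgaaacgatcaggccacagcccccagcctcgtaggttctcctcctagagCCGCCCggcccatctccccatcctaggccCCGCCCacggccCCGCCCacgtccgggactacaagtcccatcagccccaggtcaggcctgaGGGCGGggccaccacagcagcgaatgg
Mlxipl: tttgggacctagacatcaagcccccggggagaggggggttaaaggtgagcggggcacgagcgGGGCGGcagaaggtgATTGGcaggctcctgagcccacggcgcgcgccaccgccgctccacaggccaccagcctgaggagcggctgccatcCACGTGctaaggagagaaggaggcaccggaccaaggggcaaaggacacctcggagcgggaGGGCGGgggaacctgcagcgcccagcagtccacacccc

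The Fasn window held 3 CCAAT matches, a pair of which overlap as CCAATTGG, the Acly window held 4 GC boxes, and the Mlxipl window held 1 E-box, 1 CCAAT box and 2 GC boxes. RefSeq windows were found for 9 of the 10 genes, 13 windows in all, and none was found for Scd1. Only 4 of the 13 lay wholly outside the annotated gene. The only windows of Acaca and Acacb, and the Me1 window with a CCAAT match, lay wholly inside it. A CCAAT box was in 7 of the 13 windows, beside 33.8% of all 32851 windows, and these belonged to 6 genes (Fasn, Thrsp, Acacb, Me1, Mlxipl and Srebf1). A GC box was in 5 of the 13, beside 32.7% of all windows, and these belonged to 4 genes (Acly, Me1, Mlxipl and Srebf1). An E-box was in 1 window, that of Mlxipl, beside 6.02% of all windows, and the sterol response element of the pathway's known targets was matched in none, beside 0.192% of all windows. Fasn and Acly, both of wide range, thus had no motif of these in common in their windows. A match is a run of letters only, and nothing can be drawn from the absence of one in so short a window.

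Before the levels are given, some libraries need a remark. Total counts ran from 36795376 to 61886313 per library, and the adipocyte markers Adipoq (from 1209 CPM) and Plin1 (from 806 CPM) were high in all 16, where CPM is the count relative to the library's TMM-scaled total. Lepob/+ replicate 4 had a mean of 12.9 log2 CPM over 15 skeletal muscle genes, where the other libraries reached at most 7.41. The library labelled SOD1-G93A Lepob/+ replicate 3 had 0 counts of Xist and 1756 counts of Y-linked genes, which goes against its label as a female, while the other 15 had 11895 to 28034 counts of Xist and 0 of Y-linked genes. In 6 libraries (WT replicates 1 and 2, Lepob/+ replicate 3 and SOD1-G93A replicates 1, 2 and 4) lymph node genes were high. The medians over the 10 genes are given with and without these libraries, and other results where stated. The ob allele is a change within the coding part of Lep and the transgene is human, so counts of mouse Lep and Sod1 do not check either genotype.

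Fasn, the enzyme that builds palmitate, varied widely between mice of the same genotype. The highest mouse stood 5.17-fold above the lowest in WT, 7.64-fold in Lepob/+, 2.03-fold in SOD1-G93A and 9.64-fold in SOD1-G93A Lepob/+. In all but SOD1-G93A this ratio was larger than that of the highest to the lowest genotype mean. The gene lies at chr11:120805846-120824547 (GRCm38, minus strand). Its level was 13317, 3280, 16949 and 9676 CPM in WT replicates 1 to 4, and 2864, 2729, 13320 and 1744 CPM in Lepob/+. In SOD1-G93A it was 12105, 8287, 16428 and 8090 CPM, and in SOD1-G93A Lepob/+ it was 11681, 1288, 3484 and 12416 CPM. The libraries fell into a low and a high range, with 6 between 1288 and 3484 CPM and the other 10 between 8090 and 16949 CPM, and a gap of 2.32-fold between the nearest of them. Of the 6 low libraries, 1 was WT, 3 were Lepob/+, 0 were SOD1-G93A and 2 were SOD1-G93A Lepob/+, and every compared pair of genotypes overlapped. The means were 10805 ± 5830 CPM in WT, 5164 ± 5460 in Lepob/+, 11227 ± 3929 in SOD1-G93A and 7217 ± 5658 in SOD1-G93A Lepob/+ (SD, n = 4 each). Without Lepob/+ replicate 4 the Lepob/+ mean was 6304 ± 6076 CPM, and without the library labelled replicate 3 the SOD1-G93A Lepob/+ mean was 8462 ± 6223 CPM (SD, n = 3 each). In bulk tissue, fewer cells of a type and less RNA per cell cannot be told apart from a gene's counts alone, and the levels of adipocyte markers are given beside Fasn further on.

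The other enzymes before and beside Fasn had the same low libraries. Acly (chr11:100476353-100528000, minus strand), which supplies acetyl-CoA, stood at 1164, 220, 2082 and 1864 CPM in WT and at 233, 314, 2007 and 171 CPM in Lepob/+. Its values were 1822, 1181, 2192 and 1125 CPM in SOD1-G93A and 1075, 175, 391 and 1677 CPM in SOD1-G93A Lepob/+. No library lay between 391 and 1075 CPM, and the 6 lowest were the same as for Fasn. Acaca (chr11:84129672-84401651, plus strand), the carboxylase isoform of fat and liver that feeds synthesis, stood at 1348, 504, 1939 and 1292 CPM in WT and at 535, 606, 1673 and 265 CPM in Lepob/+. In SOD1-G93A it had 1408, 1010, 1915 and 1016 CPM, and in SOD1-G93A Lepob/+ 1103, 241, 367 and 1434 CPM. Again WT replicate 2, Lepob/+ replicates 1, 2 and 4 and SOD1-G93A Lepob/+ replicates 2 and 3 were the lowest, all at or under 606 CPM, while the rest had at least 1010 CPM.

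Me1 (chr9:86581371-86695953, minus strand), malic enzyme, ran from 342 to 607 CPM in those 6 libraries and from 1179 to 2644 CPM in the other 10. Thrsp (chr7:97412938-97417730, minus strand), the Spot 14 gene, ran from 260 to 479 CPM and from 839 to 2017 CPM. Both therefore had the low libraries of Fasn with no overlap. By mouse, Me1 had 1853, 493, 2059.9 and 2099.7 CPM in WT and 474, 576, 1648 and 557 CPM in Lepob/+. It had 2058, 1241, 2644 and 1179 CPM in SOD1-G93A and 1818, 342, 607 and 2366 CPM in SOD1-G93A Lepob/+. In every genotype but SOD1-G93A, where all 4 mice were in the high range, Me1 was split between the ranges. Thrsp had 1280.1, 437, 1857 and 1425 CPM in WT and 432, 479, 1461 and 259.6 CPM in Lepob/+. Its values were 1349, 904, 2017 and 839 CPM in SOD1-G93A and 1099.7, 349, 325 and 1687 CPM in SOD1-G93A Lepob/+. Thrsp was thus split in the same 3 genotypes. Elovl6 (chr3:129532355-129638495, plus strand), which lengthens palmitate to stearate, had the widest range of the 10 genes. Its level was 423, 88.7, 506 and 403 CPM in WT and 85.1, 125, 574 and 43.5 CPM in Lepob/+. It was 560, 370, 591 and 399 CPM in SOD1-G93A and 336, 33.4, 74.9 and 504 CPM in SOD1-G93A Lepob/+. The highest Elovl6 value was 17.7 times the lowest over all libraries, and within SOD1-G93A Lepob/+ the fold was 15.1, within Lepob/+ 13.2, within WT 5.70 and within SOD1-G93A 1.60.

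**Figure D1:**
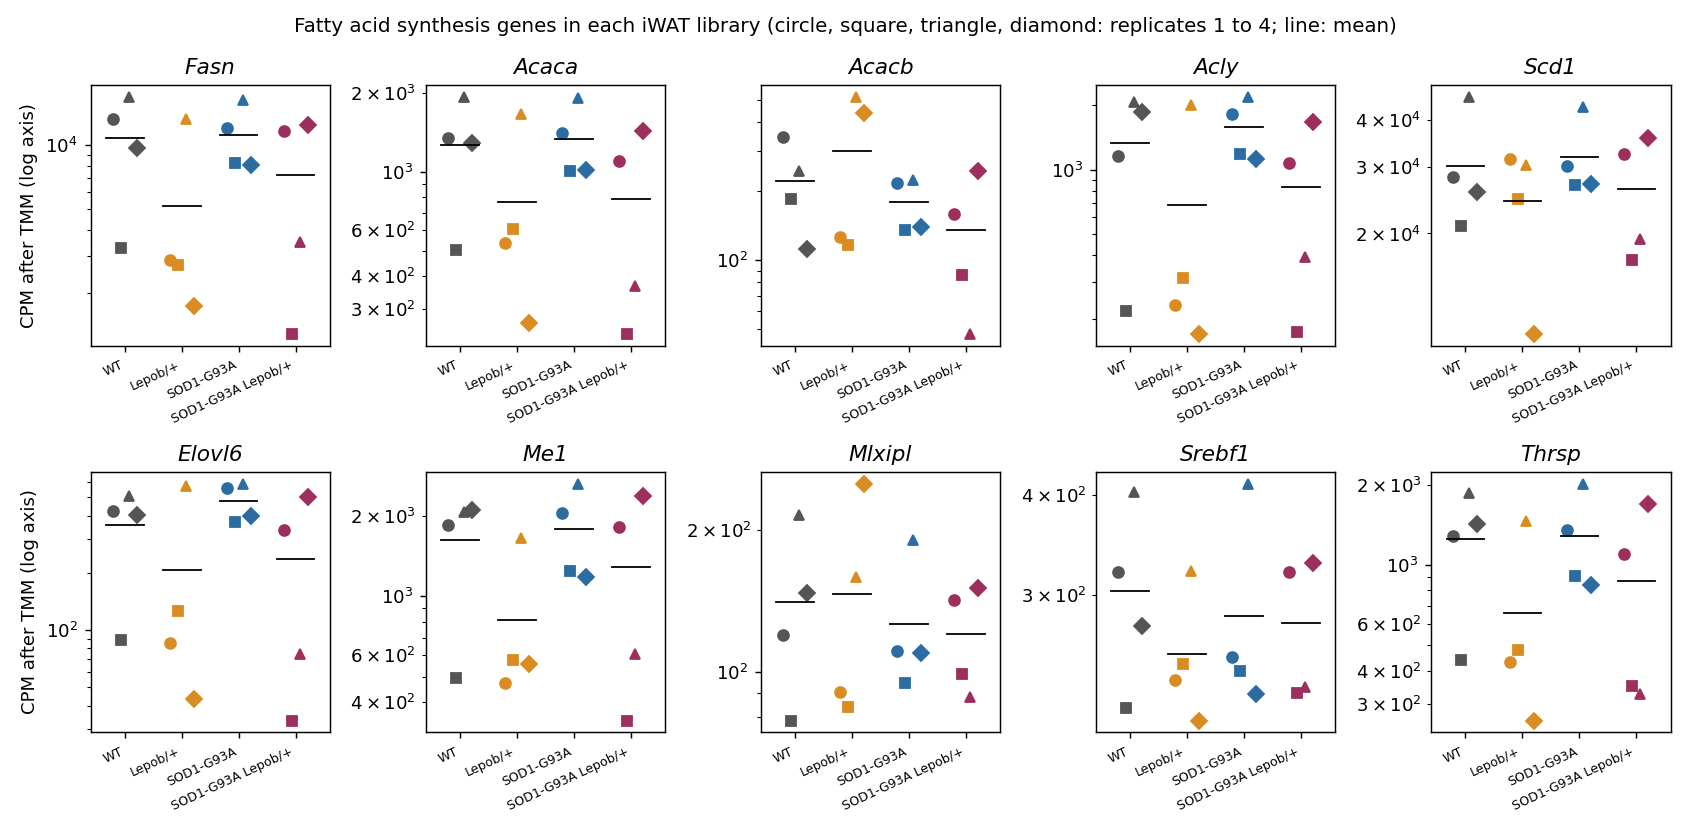
CPM after TMM of the 10 genes on log axes, 1 panel per gene with its own axis, by genotype (4 mice each, replicates 1 to 4 as circle, square, triangle and diamond, line for the mean). In Fasn, Acaca, Acly, Elovl6, Me1 and Thrsp, 6 points stand below a gap (for Fasn 1288 to 3484 CPM) and none of them is a SOD1-G93A library.

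Scd1, Srebf1, Mlxipl and Acacb departed from this pattern in part. Scd1 (chr19:44394455-44407879, minus strand), the desaturase that makes oleate and palmitoleate, stood at 28186, 20915, 45989 and 25708 CPM in WT and at 31412, 24697, 30308 and 10858 CPM in Lepob/+. It stood at 30244, 26836, 43202 and 27070 CPM in SOD1-G93A and at 32513, 17023, 19374 and 35747 CPM in SOD1-G93A Lepob/+. Lepob/+ replicate 1, low in Fasn, was thus among the high libraries in Scd1, and 5 of the 6 lowest libraries were shared. Scd1 belongs to a family of close copies, and reads that fit more than 1 copy were left out by the authors, so its counts may be too low.

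Srebf1 (chr11:60199089-60222581, minus strand) ran only from 210 to 413 CPM, a 1.97-fold range, and its SD within genotypes was the smallest of the 10. It had 320.2, 218, 403 and 275 CPM in WT and 235, 247, 322 and 209.7 CPM in Lepob/+. It had 252, 242, 413 and 226 CPM in SOD1-G93A and 321, 227, 231 and 329 CPM in SOD1-G93A Lepob/+. Its 6 lowest libraries shared 5 with Fasn, but without a gap, as the next library up was 1.03 times the sixth. Counts of Srebf1 do not separate its SREBP-1a and SREBP-1c transcripts. Mlxipl (chr5:135089890-135138382, plus strand) ran from 78.8 to 250 CPM, highest in Lepob/+ replicate 4. Its values were 119.7, 78.8, 215 and 147 CPM in WT and 90.6, 84, 159 and 250.5 CPM in Lepob/+. They were 111, 94.5, 190.3 and 109.7 CPM in SOD1-G93A and 142, 98.9, 88.5 and 151 CPM in SOD1-G93A Lepob/+. Lowest of all was WT replicate 2, and 5 of its 6 lowest libraries were shared with Fasn.

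Acacb (chr5:114146535-114250761, plus strand), the carboxylase isoform of muscle, whose malonyl-CoA holds back fatty acid oxidation, followed the other enzymes least. It stood at 345, 185, 244 and 112 CPM in WT and at 126, 116, 516 and 439 CPM in Lepob/+. It stood at 218, 136, 225 and 139 CPM in SOD1-G93A and at 160, 86.6, 47.7 and 245 CPM in SOD1-G93A Lepob/+. Lepob/+ replicate 4 was thus second highest of 16 in Acacb and highest in Mlxipl, while it was lowest or second lowest in Fasn, Acaca, Acly, Elovl6 and Thrsp. That library is the one with a skeletal muscle list at 12.9 log2 CPM, whose part in these values was not tested. Per kilobase, Acaca was above Acacb in 15 libraries, by 1.54 to 6.51 times, and below it, at 0.341 times, in Lepob/+ replicate 4.

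Within a library, the enzymes therefore stood in different proportions. Levels per kilobase of exon, averaged over the 16 libraries with their SD, put Scd1 first at 5750 ± 1839 CPM per kb, followed by Fasn at 786 ± 492, Thrsp at 463 ± 269, Me1 at 358 ± 203 and Acly at 209 ± 145. Acaca followed at 61.0 ± 33.3 CPM per kb, Elovl6 at 49.7 ± 32.5, Srebf1 at 49.6 ± 11.5, Mlxipl at 24.0 ± 9.10 and Acacb at 21.7 ± 13.3. Scd1 was above Fasn, Me1 above Acly and Acly above Acaca in 16 of 16 libraries, whereas Elovl6 was above Srebf1 in 9 and Mlxipl above Acacb in 11, so these neighbours did not differ beyond their spread. Fasn was above Thrsp in 15, Thrsp above Me1 in 14, Acaca above Elovl6 in 14 and Srebf1 above Mlxipl in 15. Without Lepob/+ replicate 4 and the library labelled SOD1-G93A Lepob/+ replicate 3 the means ran from 6130 CPM per kb for Scd1 and 864 for Fasn down to 21.2 for Acacb, in the same order. The ratio of Scd1 to Fasn per kb was 12.4 to 29.6 in the 6 libraries lowest in Fasn and 4.74 to 7.49 in the other 10, and that of Fasn to Srebf1 was 2.92 to 7.77 and 17.6 to 24.7. As Fasn itself chose the 6 libraries, these ranges describe them and test nothing. Together the 10 genes took from 0.981% of all counts (Lepob/+ replicate 4) to 7.05% (WT replicate 3), of which Scd1 alone took 0.720% to 4.49%.

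**Figure D2:**
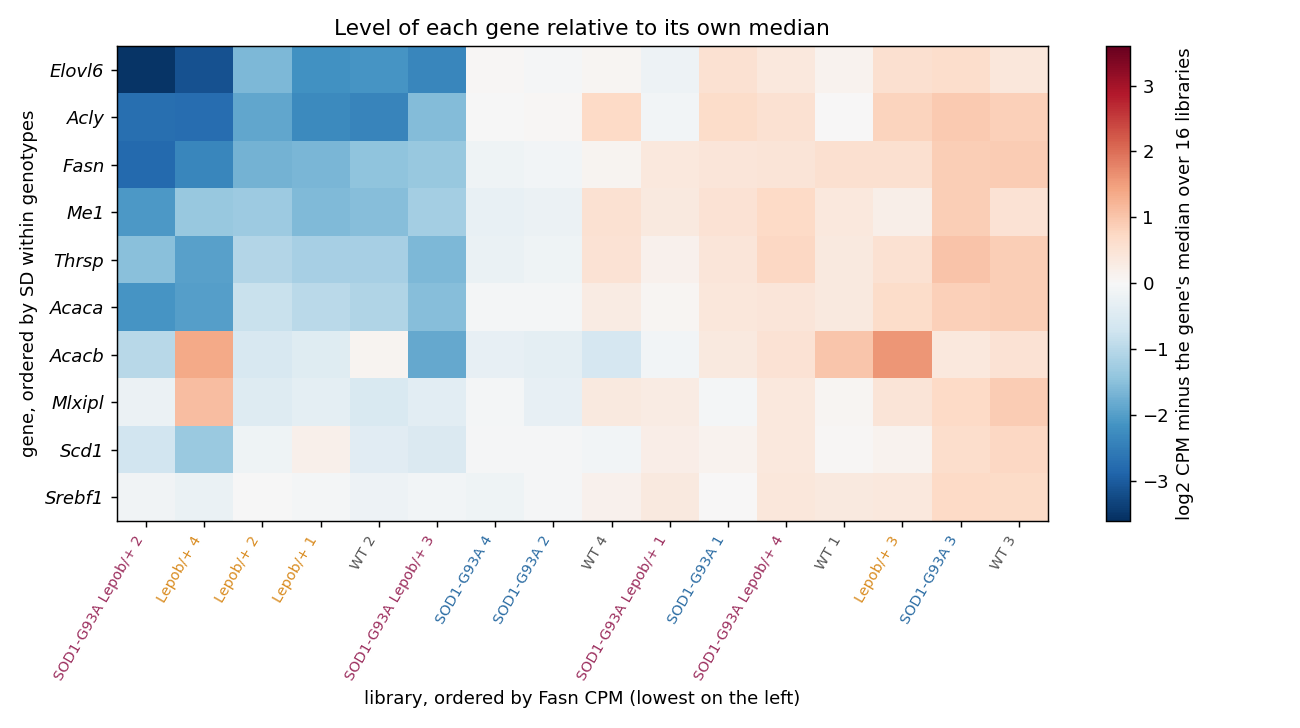
Log2 CPM of each gene minus its median over the 16 libraries (colour), with genes in rows by their SD within genotypes and libraries in columns by Fasn CPM, lowest on the left. The first 6 columns are blue for Elovl6, Acly, Fasn, Me1, Thrsp and Acaca, nearly white for Srebf1, and red for Acacb and Mlxipl in Lepob/+ replicate 4.

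To place this spread, the SD of log2 CPM within genotypes was compared with that of all 1827 genes with a mean of at least 100 CPM. The median gene had an SD of 0.329 and the 90th percentile was 0.737. Elovl6 (1.35), Acly (1.34), Fasn (1.16), Me1 (0.97), Thrsp (0.96), Acaca (0.95) and Acacb (0.87) lay above the 90th percentile. Mlxipl (0.56), Scd1 (0.53) and Srebf1 (0.34) lay between the median and the 90th percentile. Of the 1827 genes, 51 had a larger SD than Elovl6 and 62 a larger SD than Fasn. Without Lepob/+ replicate 4 and the library labelled SOD1-G93A Lepob/+ replicate 3 the SD was 1.33 for Elovl6, 1.38 for Acly, 1.20 for Fasn and 0.35 for Srebf1, where the median gene had 0.292. Without the 6 libraries rich in lymph node genes it was 1.37, 1.07, 1.15 and 0.27, where the median gene had 0.290, so that Srebf1 was then below the median gene.

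Markers of the cells in the tissue were set beside these levels. A list of 13 mature adipocyte genes had a mean of 10.01 to 10.95 log2 CPM in the 6 libraries lowest in Fasn and 9.95 to 11.1 in the other 10, so the ranges overlapped almost wholly and no low library lacked adipocyte markers. A list of 12 macrophage genes had 6.65 to 8.21 in the 6 and 6.02 to 7.91 in the 10. Mammary epithelium, a tissue that lies in this pad in females, had a list of 17 genes, of which 15 passed the filter. The mean of those 15 was 4.12 to 5.23 in the 6 and 3.86 to 5.94 in the 10. Of the milk genes, Wap was at 0 CPM in all libraries, Csn2 reached at most 1.14 CPM and Lalba at most 2.56 CPM, while Csn3 ran from 8.09 to 86.7 CPM. Of the 6 libraries rich in lymph node genes, 1 was among the 6 lowest in Fasn, and of the 10 poor in them 5 were. The lymph node list ran from -2.06 to 4.05 log2 CPM in the 6 and from -1.94 to 4.92 in the 10. Whether any of these tissues has a part in the levels of the lipogenic genes was not tested. The adipocyte, lymph node and mammary lists were each also fitted as a covariate, and medians from these fits are given with the comparisons. The macrophage list was not fitted in this way.

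**Figure D3:**
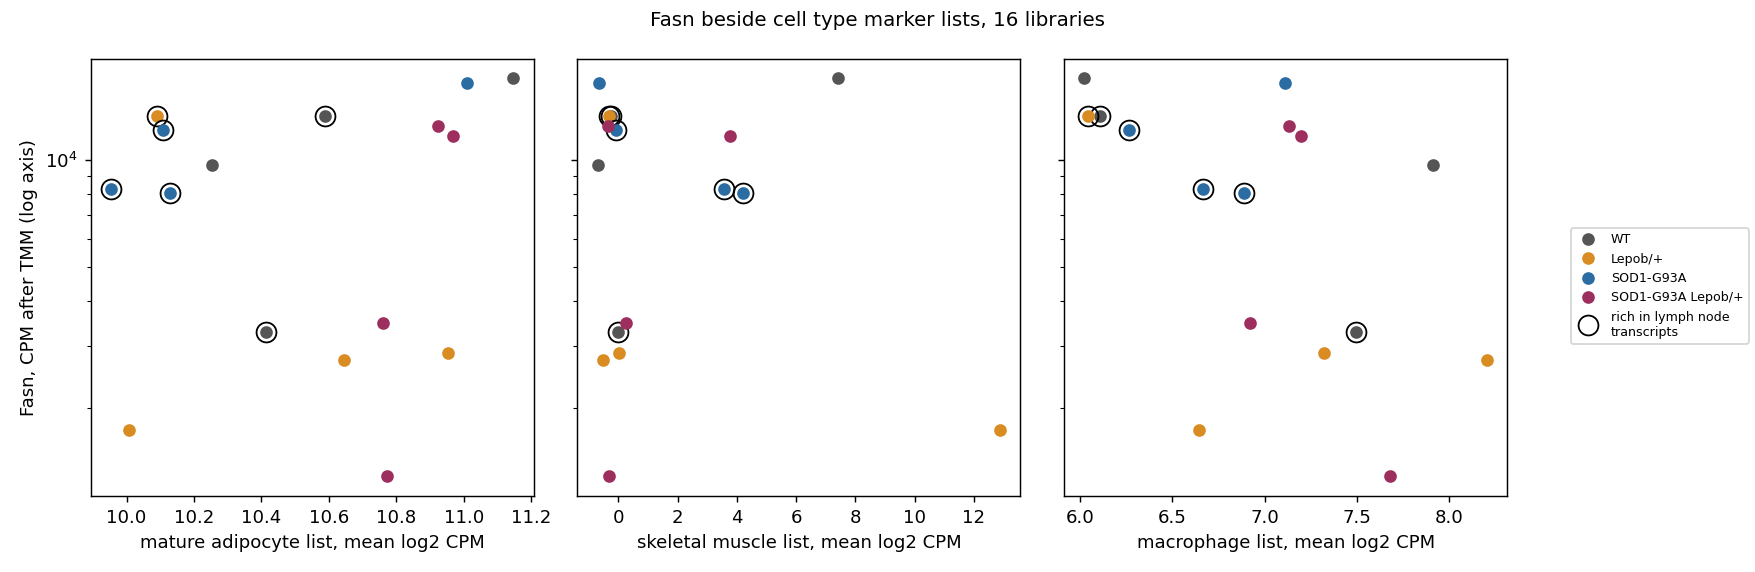
Fasn in CPM after TMM (log axis) against the mean log2 CPM of the mature adipocyte, skeletal muscle and macrophage lists, 1 point per library, coloured by genotype, with rings round the 6 libraries rich in lymph node transcripts. Low and high Fasn both occur over most of the adipocyte range (10.01 to 10.95 and 9.95 to 11.1), and 1 point, Lepob/+ replicate 4, stands apart at 12.9 on the muscle axis.

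The first comparison of genotypes asked what the loss of 1 copy of leptin does on its own, with Lepob/+ set against WT. By edgeR's quasi-likelihood test with Benjamini-Hochberg adjustment, 0 of the 10 genes were called, and 0% of all 19736 genes. At an unadjusted p under 0.05, 0 of the 10 passed, beside 4.37% of all genes. Other tools also called 0 of the 10, beside 0.00325% of all genes by DESeq2 on all libraries, 0.0174% by DESeq2 on the compared genotypes and 0% by voom or by edgeR on the compared genotypes. The values were lower in Lepob/+ for 8 genes and higher for Acacb and Mlxipl, with a median log2 fold change of -0.75, where the median of all genes was 0.03 and 44.4% of all genes were lower and 55.6% higher. Me1 had a log2 fold change of -0.998 ± 0.62 (SE), Thrsp of -0.93 ± 0.63, Fasn of -1.07 ± 0.75 and Acaca of -0.72 ± 0.61, all with an adjusted p of 0.9997 by edgeR. With each library left out in turn, Fasn ran from -2.15 (without Lepob/+ replicate 3) to -0.76 (without WT replicate 3), Acaca from -1.45 to -0.45 and Thrsp from -1.69 to -0.67 with the same libraries left out, and Me1 from -1.61 (without Lepob/+ replicate 3) to -0.81 (without Lepob/+ replicate 1). The low range of Fasn held 3 of 4 Lepob/+ libraries and 1 of 4 WT libraries. Without Lepob/+ replicate 4 the median was -0.45, without Lepob/+ replicate 3, the high one, it was -1.53, and without the 6 libraries rich in lymph node genes it was -1.89. Those 6 include Lepob/+ replicate 3 and WT replicate 2, the WT library low in Fasn, so only low Lepob/+ and high WT libraries were left. With the adipocyte, lymph node or mammary list as a covariate on all 16 libraries the median was -0.62, -0.84 or -0.63.

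SOD1-G93A was set against WT to ask what the transgene does alone. Again 0 of 10 genes were called by edgeR, and 0% of all genes, with 0 of 10 and 2.56% at an unadjusted p under 0.05. DESeq2 called 0 of 10, beside 0.00976% of all genes on all libraries and 0.062% on the compared genotypes, and voom called 0 of 10 and 0% of all genes. The values were higher in SOD1-G93A for 7 genes and lower for 3, with a median log2 fold change of 0.06 beside 0.02 for all genes, of which 53% were higher and 47% lower. Acacb had a log2 fold change of -0.30 ± 0.55 (SE), Elovl6 of 0.43 ± 0.84, Srebf1 of -0.10 ± 0.24 and Mlxipl of -0.15 ± 0.37, with an adjusted p of 0.998 each by edgeR. With each library left out in turn, Acacb ran from -0.54 to -0.021, Elovl6 from 0.11 to 0.65, Srebf1 from -0.36 to 0.063 and Mlxipl from -0.44 to 0.13. These ends came without WT replicate 4 and WT replicate 1 for Acacb, without WT replicate 2 and WT replicate 3 for Elovl6, and without SOD1-G93A replicate 3 and WT replicate 3 for the other two. Fasn ran over 2.03-fold in SOD1-G93A and over 5.17-fold in WT, whereas Srebf1 ran over 1.83-fold and 1.85-fold. The sign of the median rested on single libraries, as it was -0.22 without WT replicate 2, -0.19 without SOD1-G93A replicate 3 and 0.32 without WT replicate 3. With the adipocyte, lymph node or mammary list as a covariate it was 0.20, 0.034 or 0.33.

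The comparison of SOD1-G93A Lepob/+ with SOD1-G93A asked what lower leptin does in mice with the transgene. All 10 genes had lower values in SOD1-G93A Lepob/+, beside 49.9% of all genes lower and 50.1% higher, and the median log2 fold change was -0.52, beside 0.00 for all genes. Of the 10 values, 3 were farther from 0 than 1 SE. The 10 genes tend to move together, so their signs are not independent and that share is no yardstick for the count. None of the 10 was called by edgeR (0% of all genes), and 0 passed an unadjusted p under 0.05, which 16.5% of all genes did. DESeq2 called 2.85% of all genes on all libraries and 8.12% on the compared genotypes, voom called 31.5% and edgeR on the compared genotypes 0.0108%, and each called 0 of the 10. Acaca had a log2 fold change of -0.77 ± 0.61 (SE, adjusted p = 0.532 by edgeR), Elovl6 of -1.02 ± 0.85 (0.548), Acly of -0.93 ± 0.85 (0.589) and Thrsp of -0.56 ± 0.63 (0.664). Without SOD1-G93A Lepob/+ replicate 4 they were -1.23, -1.70, -1.53 and -1.11, and at the other end Acaca was -0.47, Elovl6 -0.65 and Acly -0.59 without SOD1-G93A Lepob/+ replicate 2 and Thrsp -0.24 without SOD1-G93A replicate 3. Replicate 2 of SOD1-G93A Lepob/+ lay below every SOD1-G93A library for 8 of the 10 genes and the library labelled replicate 3 for 9. Replicate 1 lay below that range for 2 genes, Acly and Elovl6, and replicate 4 for 0, being above it for Acacb. The share of all genes below that range in each library was not counted, so these counts describe the 10 genes only and have no yardstick. Without the library labelled SOD1-G93A Lepob/+ replicate 3 the median was -0.26, without replicate 4 it was -0.99 and without SOD1-G93A replicate 3 it was -0.26. In this comparison T cell, B cell and lymph node lists had lower values in SOD1-G93A Lepob/+, with median log2 fold changes of -5.86, -6.44 and -5.97. All 13 mature adipocyte, 12 macrophage, 8 endothelial and 8 fibroblast genes had higher values, with medians of 0.46, 0.56, 0.35 and 0.57, and the mammary list had a median of 0.72. EdgeR called none of these genes. DESeq2 on all libraries called 15 of 15 T cell, 10 of 12 B cell and 8 of 11 lymph node genes, all lower, and voom called 14, 11 and 5 of them and 12 of 13 adipocyte genes. Without the 6 libraries rich in lymph node genes, which left only replicate 3 of SOD1-G93A, the T cell, B cell, lymph node and adipocyte medians were 0.16, 0.63, 0.64 and -0.18. On all 16 libraries, the median of the 10 genes was -0.81, -0.46 or -1.25 with the adipocyte, lymph node or mammary list as a covariate. The part of these tissues in the values of the 10 genes was not tested.

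SOD1-G93A Lepob/+ against Lepob/+, the transgene in mice with 1 copy of leptin, had higher values for 8 genes and lower for Acacb and Mlxipl. The median log2 fold change was 0.16, beside -0.06 for all genes, of which 42.1% were higher and 57.9% lower. No gene of the 10 was called by edgeR (0% of all genes) or at an unadjusted p under 0.05 (8.24%). None was called by DESeq2 on all libraries (0.221%), by DESeq2 on the compared genotypes (0.113%) or by voom (0.0101%). Acacb had the smallest unadjusted p of the 10 genes over the 6 comparisons, with a log2 fold change of -1.15 ± 0.56 (SE, adjusted p = 0.604 by edgeR), and Me1 had 0.66 ± 0.61, Mlxipl -0.28 ± 0.37 and Fasn 0.48 ± 0.74. Acacb was 299 ± 208 CPM in Lepob/+ and 135 ± 87.0 CPM in SOD1-G93A Lepob/+ (SD, n = 4 each), and 2 of the 4 Lepob/+ values lay inside the range of the other genotype. Without Lepob/+ replicate 4 and the library labelled SOD1-G93A Lepob/+ replicate 3 its log2 fold change was -0.62, and by voom it was -0.18. With each library left out in turn, Acacb ran from -1.61 to -0.75, Me1 from 0.18 to 1.27 and Fasn from 0.088 to 1.57, the ends coming without SOD1-G93A Lepob/+ replicate 4 and without Lepob/+ replicate 3, and Mlxipl from -0.47 (without Lepob/+ replicate 2) to 0.11 (without Lepob/+ replicate 4). The median of the 10 genes was 0.95 without Lepob/+ replicate 3, 0.0074 without Lepob/+ replicate 4, 0.38 without the library labelled SOD1-G93A Lepob/+ replicate 3, -0.23 without SOD1-G93A Lepob/+ replicate 4, and -0.033 and -0.11 with the adipocyte and mammary lists as covariates. It was 0.26 with the lymph node list as a covariate.

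Mice with both mutations were also set against WT. The values of all 10 genes were lower, beside 49% of all genes lower and 51% higher, and their median log2 fold change was -0.56 beside 0.01 for all genes. Here too the signs are not independent, and 2 of the 10 values were farther from 0 than 1 SE. None of the 10 genes was called by edgeR (0% of all genes) or at an unadjusted p under 0.05 (4.74%). None was called by DESeq2 on all libraries (0.143%), by DESeq2 on the compared genotypes (1.64%), by voom (0.0101%) or by edgeR on the compared genotypes (0.0109%). Acacb had a log2 fold change of -0.72 ± 0.56 (SE), Acaca of -0.69 ± 0.61, Thrsp of -0.53 ± 0.63 and Acly of -0.68 ± 0.85. Without SOD1-G93A Lepob/+ replicate 4 they were -1.18, -1.15, -1.08 and -1.28. At the other end Acacb was -0.43 without WT replicate 1, Acaca -0.39 and Acly -0.35 without SOD1-G93A Lepob/+ replicate 2, and Thrsp -0.26 without the library labelled SOD1-G93A Lepob/+ replicate 3. The genes of T cells, of B cells and of lymph node had lower values here too, with medians of -4.99, -4.83 and -4.60. DESeq2 on the compared genotypes called 13, 9 and 7 of them and edgeR called 0, and their part in the values of the 10 genes was not tested. Without the library labelled SOD1-G93A Lepob/+ replicate 3 the median was -0.27, without replicate 2 it was -0.23 and without replicate 4 it was -1.03. The interaction, which asks whether the ob allele acts differently with and without the transgene, called none of the 10 (0% of all genes), none at an unadjusted p under 0.05 (7.98%), none by DESeq2 on all libraries (0.202%) and none by voom (0%). Its median was 0.03, beside -0.09 for all genes, with 6 genes above 0 (42.5% of all genes) and 4 below (57.5%), Acacb at -0.85 ± 0.78, Srebf1 at 0.23 ± 0.33, Me1 at 0.53 ± 0.87 and Thrsp at 0.36 ± 0.89 (log2, SE). Without SOD1-G93A Lepob/+ replicate 4 Acacb was -1.30, Me1 0.050 and Thrsp -0.18, and without Lepob/+ replicate 3 they were -0.43, 1.14 and 1.13. Srebf1 ran from 0.064 (without WT replicate 3) to 0.50 (without SOD1-G93A replicate 3). The median of the 10 genes was 0.88 without Lepob/+ replicate 3, -0.037 without Lepob/+ replicate 4, 0.23 without the library labelled SOD1-G93A Lepob/+ replicate 3, -0.25 without WT replicate 3, and -0.25 and -0.35 with the adipocyte and mammary lists as covariates. Without Lepob/+ replicate 4 together with the library labelled SOD1-G93A Lepob/+ replicate 3 it was 0.11. Without the 6 libraries rich in lymph node genes the median was 0.27 in SOD1-G93A against WT, -1.10 in SOD1-G93A Lepob/+ against SOD1-G93A, 0.96 in SOD1-G93A Lepob/+ against Lepob/+, -0.80 in SOD1-G93A Lepob/+ against WT and 0.70 in the interaction. That fit kept only replicate 3 of SOD1-G93A, which was assumed to vary like the other groups. These comparisons share groups, so their values are not independent of each other. As the 10 genes tend to move together, in no comparison is the share of all genes a yardstick for a count of signs.

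**Figure D4:**
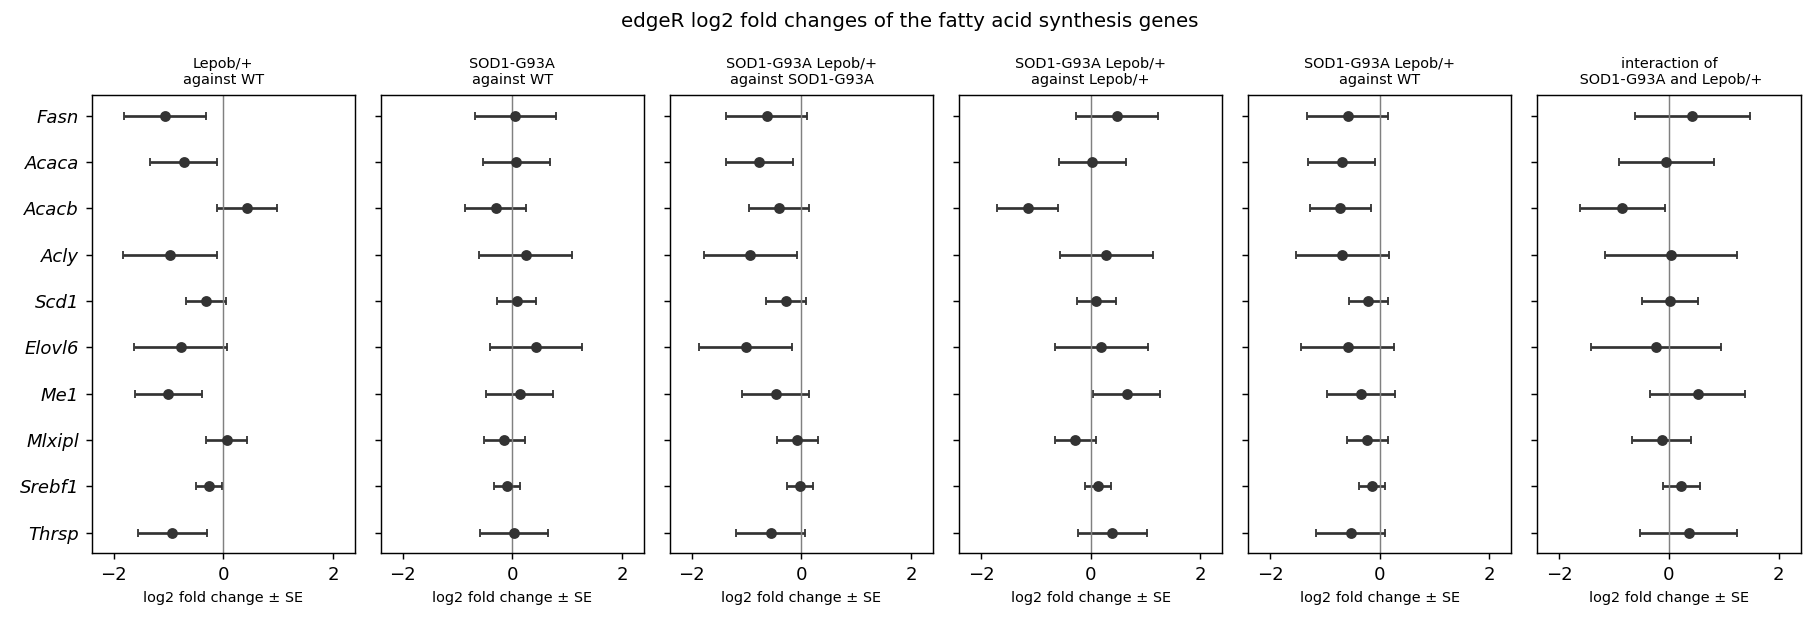
Log2 fold changes from edgeR with their SE (bars) for the 10 genes in 6 comparisons, 1 panel each, with a line at 0. Of the 60 values, 14 are farther from 0 than 1 SE, and the largest distance from 0 is that of Acacb in SOD1-G93A Lepob/+ against Lepob/+ (-1.15 ± 0.56).

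The other genes of the pathway were read in the same way, with fixed lists for the supply of acetyl-CoA and NADPH (10 genes), elongases and desaturases (15, of which 14 were tested), regulators (17), glucose entry and glycolysis (17, of which 16 were tested) and triglyceride assembly (10). None of their genes was called by edgeR in any comparison. Of the supply genes, Acss2 (acetyl-CoA from acetate), Slc25a1 (the citrate carrier) and Pcx (pyruvate carboxylase) had the same 6 lowest libraries as Fasn, and their SD within genotypes was 1.17, 0.85 and 0.53. Acss2 ran from 53.3 to 617 CPM, Slc25a1 from 120 to 855 CPM and Pcx from 714 to 2291 CPM. G6pdx and Idh1, which supply NADPH by other routes, shared 3 and 2 of the 6, with an SD of 0.36 each, and ran over 2.28-fold each. Voom called both in SOD1-G93A Lepob/+ against SOD1-G93A, G6pdx at 0.60 ± 0.19 (adjusted p = 0.0316) and Idh1 at 0.50 ± 0.17 (0.0402), where it called 31.5% of all genes. In that comparison it also called Slc2a1, a glucose transporter, at -0.50 ± 0.15 (0.0235) and Txnip, an inhibitor of glucose uptake, at 0.45 ± 0.13 (0.0231). Tkt, transketolase of the pentose phosphate pathway, and Eno1, enolase, were the glycolysis-list genes with all 6 in common.

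The regulators are the factors that activate, hold back or pair with SREBP and ChREBP, and kinases that act on the pathway. Their median SD of log2 CPM within genotypes was 0.24, beside 0.96 for the 10 genes and 0.33 for all genes with at least 100 CPM, and none of the 17 shared 5 or 6 of the lowest libraries with Fasn. Scap, Mbtps1 and Mbtps2, which release SREBP from the membrane, ran over 1.51-fold, 1.41-fold and 1.75-fold. Nr1h3, the liver X receptor alpha that acts on Srebf1, had a log2 fold change of -0.47 ± 0.21 (SE) in SOD1-G93A against WT (adjusted p = 0.998 by edgeR) and 0.49 ± 0.21 in SOD1-G93A Lepob/+ against SOD1-G93A (adjusted p = 0.273 by edgeR). Voom alone called Nr1h3 in the second of these, at 0.71 ± 0.14 (adjusted p = 0.00535), together with Srebf2 at -0.61 ± 0.16 (0.0119) and Insig2 at 0.30 ± 0.10 (0.0429), where it called 31.5% of all genes. DESeq2 on the compared genotypes called Mlxip there, at -0.49 ± 0.16 (adjusted p = 0.0402), 1 of 17 regulators where it called 8.12% of all genes. Without the 6 libraries rich in lymph node genes the Nr1h3 values turned to 0.15 in SOD1-G93A against WT and -0.026 in SOD1-G93A Lepob/+ against SOD1-G93A. Lepob/+ replicate 4, the library with the muscle genes, was the highest for Mlxip, a partner of Mlx like ChREBP, at 195 CPM, where the next had 98.8, and for Prkaa2, a catalytic subunit of AMP-activated kinase, at 211 CPM, where the next had 15.6. It was also the highest for the glycolytic genes Aldoa (14992 CPM, next 1925), Gapdh (917, next 136), Pkm (3750, next 789) and Pgk1 (936, next 186).

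Of the elongases and desaturases, Scd4, a near copy of Scd1, had the smallest unadjusted p, with a log2 fold change of -2.84 ± 0.73 (SE) in SOD1-G93A Lepob/+ against SOD1-G93A (adjusted p = 0.261 by edgeR). DESeq2 on all libraries called it at -2.97 ± 0.71 (adjusted p = 0.0060) and voom at -2.30 ± 0.75 (adjusted p = 0.0332), where they called 2.85% and 31.5% of all genes. DESeq2 on the compared genotypes called it there (adjusted p = 4.08e-05, beside 8.12% of all genes) and against WT at -1.89 ± 0.54 (adjusted p = 0.0350, beside 1.64%). In the same list voom called Fads3, a member of the fatty acid desaturase family, at 0.94 ± 0.19 (adjusted p = 0.0058) and Elovl3 at -3.05 ± 0.94 (0.0255). Scd4 had only 0.0999 to 2.62 CPM, and reads of near copies may be split between them. Scd2 ran from 143 to 690 CPM and Scd3 from 24.4 to 99.8 CPM, each with 5 of the 6 lowest libraries of Fasn. Fads1, Fads2 and Elovl5, which make long polyunsaturated fatty acids, shared 2, 4 and 1, and Elovl5 ran over 1.88-fold. In the triglyceride list, Gpd1, Dgat2 and Lpin1 shared 5 of the 6 and the others 2 to 4.

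**Figure D5:**
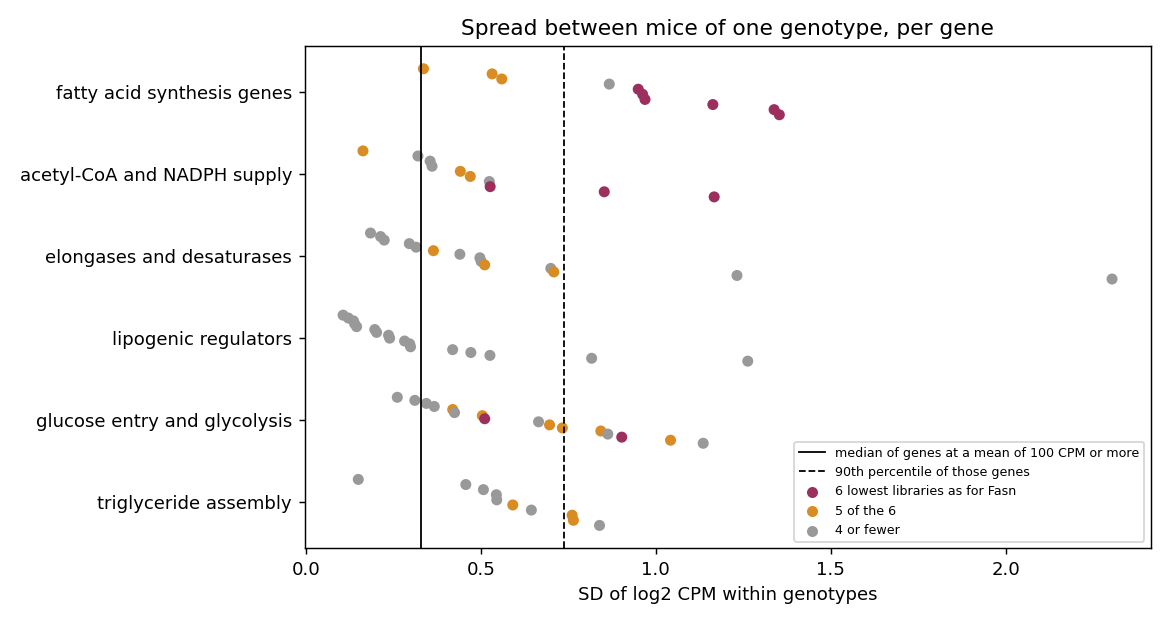
SD of log2 CPM within genotypes of each tested gene in the 10 lipogenic genes and 5 further lists, coloured by how many of the 6 libraries lowest in Fasn are also its own lowest 6. Solid and dashed lines are the median (0.329) and the 90th percentile (0.737) of genes at 100 CPM or more, and most regulators lie left of the median while 7 of the 10 lipogenic genes lie right of the dashed line. The sharing was not counted over all genes.

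Genes with a pattern most like that of the 10 were looked for among 12621 genes with a mean of at least 5 CPM, by the correlation of their log2 CPM with the mean standardised level of the 10. In this order they were Acss2, Pcx, Gm7329, Gm7049, Tkt, Slc25a1, Gm5182, Gbe1, Slc2a5 and Pmvk. As the libraries form 2 ranges, no coefficient over all 16 is given. Within the 10 high libraries r ran from 0.64 for Slc2a5 to 0.97 for Pcx, with 0.88 for Acss2, and within the 6 low libraries from 0.19 for Pmvk to 0.84 for Slc2a5, with 0.74 for Acss2. These are descriptions over few libraries that share their scaling. Gbe1 encodes the glycogen branching enzyme, Slc2a5 a fructose transporter and Pmvk a kinase of the mevalonate pathway. Slc2a5 ran from 0.50 to 46.3 CPM and Pmvk from 30.7 to 83.4 CPM. All but Gbe1, with 5, had the same 6 lowest libraries as Fasn. Gm7329, Gm7049 and Gm5182 are annotated as processed pseudogenes, and their reads may come from a parent gene.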

How the data were processed

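RNA from iWAT of 16 mice was sequenced by the authors, who isolated it with Qiazol and a lipid tissue kit. They removed low-quality reads with fastp, aligned the rest to mm10 with HISAT2 2.1.0 and, per the submitters' processing notes, counted unique reads per gene with featureCounts 2.0.2. The deposited values are raw counts of 54752 Ensembl genes with no normalization. The paper names a TruSeq stranded kit and the labels a NEBNext kit, and the strand setting and annotation release are not given in the sources used here. Symbols and coordinates come from GENCODE M21 (GRCm38), which paired 54723 IDs, and promoters from RefSeq (GRCm38.p6). Strand being unknown, reads of overlapping antisense genes cannot be told apart.

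Genes were filtered in R 4.3.3 with filterByExpr of edgeR 4.0.16 (min.count 10, min.total.count 15). Libraries were scaled by TMM, and a robust quasi-likelihood fit on all 16 libraries gave 6 comparisons, adjusted by Benjamini-Hochberg over 19736 genes at a threshold of 0.05. Log2 levels used a prior count of 1. Total counts of 36795376 to 61886313 put counting error far below the spread between mice for these 10 genes. Libraries of the same genotype differed from each other beyond sampling noise, so none was counted as a copy. Libraries of different genotypes were not compared in this way.

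The 10 genes and all lists were chosen with earlier results of these data known. Fold changes with SE are given for the 4 genes of smallest p in each comparison, for up to 4 genes per further list, and the 10 genes most alike by correlation. Genes of the further lists named for their range, shared low libraries or a call by another tool, and the markers and libraries singled out, were chosen after their values were seen. Alternatives were DESeq2 1.42.0 and voom of limma 3.58.1, other scalings and filters, a replicate block, covariates for adipocyte, lymph node and mammary lists, leaving out each library or all lymph node rich ones, and, added after seeing the data, leaving out Lepob/+ replicate 4 with the library labelled SOD1-G93A Lepob/+ replicate 3, and SDs, list medians and further genes recomputed without doubted or lymph node rich libraries. Every library was used in the main values, and values that leave libraries out are named as such. Labels call the mice separate samples. The p-values judge differences between genotypes against the spread between mice.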

Additional observations from a re-analysis of the deposited data

Results flagged for a closer look

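In 7 of 40 sets of 4 mice (a gene in a genotype), 1 library stood far from the nearest of the others, with a gap beyond the 95% limit of Dixon's test for 4 values. Chance gives about 1 in 20 for a single set, but the 10 genes share their libraries and move together, so the sets are not independent and that rate is no yardstick for the count. Lepob/+ replicate 3 was the highest of its genotype for Fasn at 13320 CPM (gap 0.903 of the range), Acly at 2007 CPM (0.922), Elovl6 at 574 CPM (0.845) and Me1 at 1648 CPM (0.913), where the other Lepob/+ libraries were among the 6 lowest of all. WT replicate 2 was the lowest WT library for Me1 at 493 CPM (0.846). SOD1-G93A replicate 3, the most deeply sequenced library, was the highest of its genotype for Mlxipl at 190 CPM (0.831) and Srebf1 at 413 CPM (0.863). It was the only SOD1-G93A library not rich in lymph node genes. Its adipocyte list stood at 11.01 log2 CPM, where the other SOD1-G93A libraries had 9.95 to 10.13. Lepob/+ replicate 3 is 1 of the 6 libraries rich in lymph node genes. The part of tissue content in these values was not tested.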

How the results depend on the processing

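No gene of the 10 was called in any of 184 fits over settings and comparisons, so no setting changed a call, although the sign of the median turned in SOD1-G93A against WT, SOD1-G93A Lepob/+ against Lepob/+ and the interaction. Of 178 alternative medians, 2 moved by more than 0.81, the pooled SD within genotypes of the mean log2 CPM of the 10 genes. They were Lepob/+ against WT without the lymph node rich libraries (-1.89) and the interaction without Lepob/+ replicate 3 (0.88). That limit is wider than any main median, the farthest from 0 being -0.75. A median could therefore turn its sign within the limit, and the count says little about stability. With each library left out in turn the medians ran from -1.53 to -0.45 in Lepob/+ against WT, from -0.22 to 0.32 in SOD1-G93A against WT, from -0.99 to -0.26 in SOD1-G93A Lepob/+ against SOD1-G93A, from -0.23 to 0.95 against Lepob/+, from -1.03 to -0.23 against WT and from -0.25 to 0.88 in the interaction. Signs, none past the test, turned for SOD1-G93A against WT without the lymph node rich libraries (Srebf1 0.27, Acacb 0.32, Mlxipl 0.054), with the adipocyte covariate (Srebf1 0.041) or with the mammary covariate (Acacb 0.30), and with 1 library left out for Srebf1 (-0.36 to 0.063) and Mlxipl (-0.44 to 0.13). Mlxipl in SOD1-G93A Lepob/+ against Lepob/+ turned with voom (0.35), without the 2 doubted libraries (0.24) or with 1 library left out (-0.47 to 0.11), and Acly against WT turned with voom (0.054). In the interaction Thrsp turned with the adipocyte (-0.11) and mammary (-0.42) covariates and with 1 library left out (-0.18 to 1.13), Srebf1 with the adipocyte covariate (-0.17), Me1 with the mammary one (-0.18) and Acacb with voom (0.14). The fit without the lymph node rich libraries kept only replicate 3 of SOD1-G93A. The cause of these turns was not tested.

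Whether the replicate numbers pair the mice cannot be told from these values. Of 24 same-numbered pairs, 5 had residuals correlated over 0.1 and 8 below -0.1, but differently numbered pairs were not compared. Between WT and SOD1-G93A the correlation was 0.412, 0.407, 0.52 and -0.312 for replicates 1 to 4. With the replicate block the median was -0.69 in Lepob/+ against WT and -0.57 in SOD1-G93A Lepob/+ against SOD1-G93A, and 0 of the 10 genes were called in each comparison. The spread between 4 mice a group set the precision, with an SE in Lepob/+ against WT from 0.24 for Srebf1 to 0.75 for Fasn and 0.85 for Acly.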
